A study of Arabidopsis thaliana with 6 samples.

Results

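The Cys N-degron pathway is the oxygen-sensing branch of targeted proteolysis in plants. Methionine aminopeptidases first expose a cysteine that follows the initial methionine of a protein. Plant cysteine oxidases (PCOs) use molecular oxygen to oxidize that cysteine, arginyl transferases (ATEs) add an arginine to it, and the E3 ligase PRT6 marks the arginylated protein for degradation. When oxygen is short the cysteine is not oxidized and the substrates accumulate, among them the group VII ethylene response factors (ERFVIIs), the chromatin protein VRN2 and the small leucine zipper protein ZPR2. The genes of 10 such components were followed here out of 28775 genes counted. They were taken by gene identifier for their role in the pathway, with earlier results of these data already known, and comprise the enzyme genes *PCO1* (*AT5G15120*), *PCO2* (*AT5G39890*), *PCO3* (*AT1G18490*), *PCO4* (*AT2G42670*), *PCO5* (*AT3G58670*), *ATE1* (*AT5G05700*), *ATE2* (*AT3G11240*) and *PRT6* (*AT5G02310*), and the substrate genes *VRN2* (*AT4G16845*) and *ZPR2* (*AT3G60890*). All 10 passed the filter on low counts and were tested with 21206 genes in all.

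The counts came from RNA-seq of whole *Arabidopsis thaliana* seedlings kept in air and harvested when the light period ended, with 2 replicate libraries per genotype. MA-Line1 is line 1 of *35S:MA-JcERFVII2*, in which the cauliflower mosaic virus 35S promoter drives a *Jatropha curcas* ERFVII gene whose N-degron cysteine was replaced by alanine, so that the protein is stabilized. MC-Line3 is line 3 of *35S:MC-JcERFVII2*, which carries the same gene with the cysteine kept. Col-0 is the ecotype in which both lines were made and served as the wildtype. Each form was sequenced in 1 line only, so the form of the protein and the line cannot be told apart. The sample labels give an age of 10 d, while the text of the study gives a younger age. The MC columns of the count table are numbered as line 1 and were assigned by construct. The text of the study calls the replicates biological, and the labels number them without naming separate cultures. The *Jatropha* transcript itself was not analysed here.

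Between 53084008 and 65271057 reads were counted per library, and levels are given as CPM, the reads of a gene per 1000000 counted reads after TMM scaling, which corrects library sizes for composition. The SD of the log2 difference between the 2 libraries of a genotype was 0.186 in MA-Line1, 0.204 in MC-Line3 and 0.265 in Col-0, so the replicates of Col-0, against which both lines are set, differed most. A list of 5 root genes (*CASP1*, *EXPA7*, *COBL9*, *PRP3* and *RHD6*), which mark the endodermis and root hairs, summed to 9.39 to 11.03 CPM in MA-Line1, 26.8 to 27.6 CPM in MC-Line3 and 30.1 to 35.1 CPM in Col-0. Of these 5 genes, 4 were lower by more than 2-fold in MA-Line1 than in Col-0, and 1 was lower in MC-Line3. In bulk seedlings, fewer cells of a type and less RNA per cell cannot be told apart. A list of 5 photosynthesis genes of the shoot summed to 34661 to 37161 CPM in MA-Line1, 39770 to 42130 CPM in MC-Line3 and 47573 to 49798 CPM in Col-0, with 4 of 5 genes lower in MA-Line1 and 3 of 5 lower in MC-Line3. A list of 4 floral genes summed to 6.92 to 7.36 CPM in MA-Line1, 7.74 to 8.36 CPM in MC-Line3 and 3.91 to 11.1 CPM in Col-0. Most of each sum was *PI*, with means of 5.89 CPM in MA-Line1, 7.65 CPM in MC-Line3 and 7.10 CPM in Col-0. Of the 4 genes, *AP1* and *AP3* were higher in MA-Line1. Their means were only 0.36 and 0.43 CPM there, against 0.067 and 0.066 CPM in Col-0. Only 2 of the 4 genes had 3 or more counts in every library. The 4 seed storage genes had 10 or fewer counts in every library, and 1 of them had none. The part of these shifts in the results on the N-degron genes was not tested.

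The substrates are set apart from the enzymes by their second codon. The first 30 coding bases of *VRN2*, *ZPR2* and *RAP2.3* were read from the TAIR10.1 genome at the RefSeq coding starts, and the codon for the cysteine that becomes the N-degron is in capitals. *RAP2.3* is shown because *JcERFVII2* groups with it among the Arabidopsis ERFVIIs. The *VRN2* stretch lies at chr4:9476708-9476737 on the plus strand, that of *ZPR2* at chr3:22497413-22497442 on the minus strand, and that of *RAP2.3* at chr3:5705784-5705813 on the plus strand.
VRN2: atgTGTaggcagaattgtcgcgcgaaatcc
ZPR2: atgTGTctgacaacttcagagccaccattc
RAP2.3: atgTGTggcggtgctattatttccgattat
A cysteine codon in this place was found in 191 of 26700 genes with an annotated ATG start (0.715%), counting the longest coding sequence of each. None of the 8 enzyme genes had one in any annotated transcript. The same codon was absent from *EMF2* and *FIS2*, the relatives of *VRN2*, and from *ZPR1* and *ZPR3*, the relatives of *ZPR2*. The shorter annotated form of *VRN2* starts further downstream and lacks the cysteine, and gene counts do not separate it from the longer form.

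In MA-Line1, 6 of the 10 genes passed the test against Col-0, 4 of them higher and 2 lower, by edgeR's quasi-likelihood test at a Benjamini-Hochberg adjusted p below 0.05. At that threshold 37.1% of all tested genes were called, 18.0% as higher and 19.1% as lower. In MC-Line3, 5 of the 10 were called, 4 higher and 1 lower, against 31.2% of all tested genes, 14.5% as higher and 16.7% as lower. *PCO1* and *PCO2* were the only members called with a change above 2-fold, and both rose in both lines. Of all tested genes, 7.70% passed that stricter rule in MA-Line1 (2.94% higher, 4.76% lower), and 4.96% did in MC-Line3 (1.33% higher, 3.63% lower). When MA-Line1 replicate 1 or 2 was left out, *PCO1* and *PCO2* alone were still called in MA-Line1, a count of 2. In MC-Line3 the count was 3 with DESeq2, with only the groups compared in the fit, and with the replicate number as a block. It also dropped when Col-0 replicate 2, MC-Line3 replicate 1 or 2, or MA-Line1 replicate 1 or 2 was left out.

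**Figure D1:**
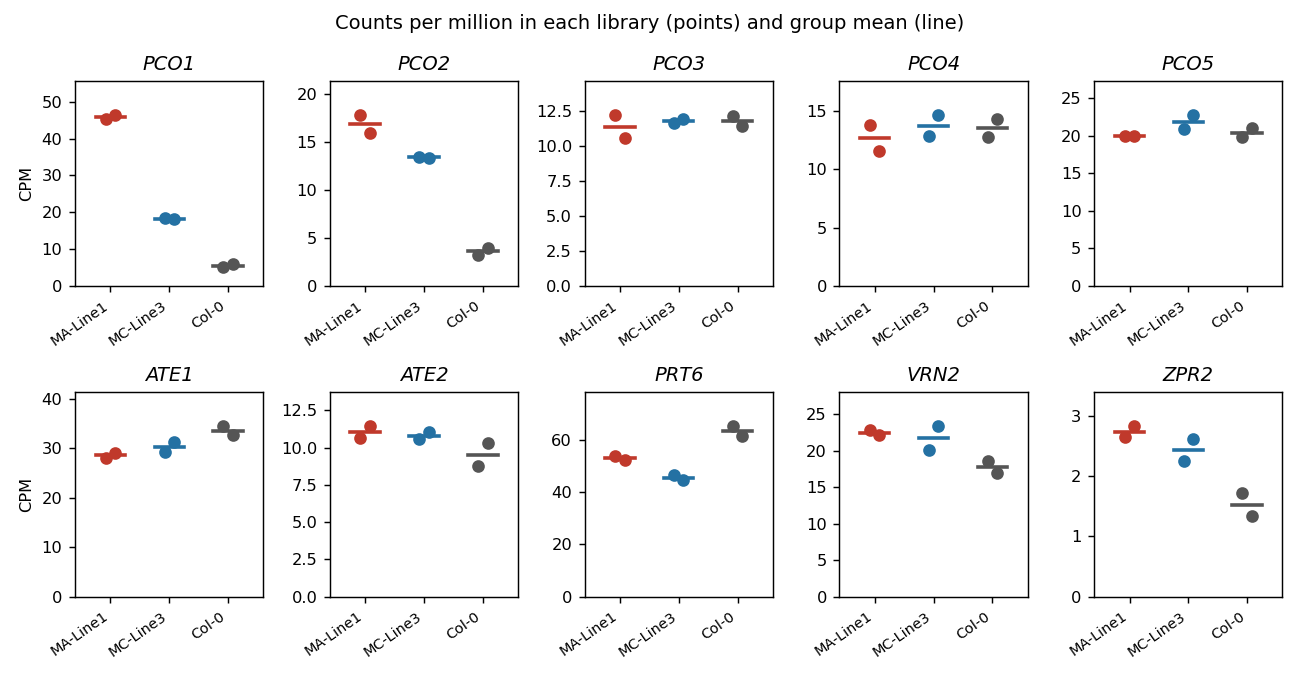
CPM after TMM scaling (y axis, from 0) of the 10 genes in each library (points, 2 per genotype) with the group mean (line) for MA-Line1, MC-Line3 and Col-0. *PCO1* stands at 45.4 and 46.4 CPM in MA-Line1, 18.3 and 18.2 CPM in MC-Line3 and 5.10 and 5.82 CPM in Col-0, while the points of *PCO3* and *PCO4* overlap between the genotypes.

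*PCO1* and *PCO2* encode the cysteine oxidases whose transcripts are known to be induced by low oxygen. *PCO1* (chromosome 5 of TAIR10.1, 4898641 to 4900734, plus strand) had 45.4 and 46.4 CPM in MA-Line1, 18.3 and 18.2 CPM in MC-Line3, and 5.10 and 5.82 CPM in Col-0. The 3 genotypes did not overlap and each pair differed by far more than its replicates. Its log2 fold change was 3.07 (SE 0.095, adjusted p = 1.06e-07) in MA-Line1, which is 8.39-fold, and this placed it at the 99.3 percentile of absolute change among all tested genes. In MC-Line3 it was 1.74 (SE 0.095, adjusted p = 5.40e-07), which is 3.34-fold. The difference between the lines was also called, with MA-Line1 higher than MC-Line3 by 1.33 (SE 0.086, adjusted p = 2.99e-06).

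*PCO2* (chromosome 5, 15974270 to 15976270, plus strand) had 17.8 and 15.9 CPM in MA-Line1, 13.4 and 13.4 CPM in MC-Line3, and 3.22 and 3.96 CPM in Col-0. Its log2 fold change was 2.23 (SE 0.130, adjusted p = 9.72e-07) in MA-Line1 and 1.89 (SE 0.131, adjusted p = 3.21e-06) in MC-Line3, or 4.68-fold and 3.71-fold. All libraries of both lines lay above those of Col-0. The MA-Line1 libraries also lay above those of MC-Line3, but this difference of 0.33 missed the threshold (adjusted p = 0.0744, unadjusted 95% interval 0.07 to 0.60). Thus *PCO1* had a called difference between the lines and *PCO2* had no called difference in these counts. Whether the gap in *PCO1* exceeded that in *PCO2* was not tested. By quantitative RT-PCR, the text of the study reports more *PCO2* transcript in the MA line than in the MC line or Col-0 in air.

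The starts of these transcripts were searched for the hypoxia-responsive promoter element (HRPE), a known binding element of ERFVIIs whose first 6 letters are AAACCA. The first 30 bases of both annotated transcripts are shown with the match in capitals. They lie at chr5:4898641-4898670 and chr5:15974270-15974299, both on the plus strand.
PCO1: aaaagaatgGCCCCTGGTTTtgtaatcgat
PCO2: ggaaattAAACCAgcccatagagagaaaaa
In *PCO1* the capitals are a full HRPE on the minus strand, from base 10 to base 20. In *PCO2* they are the AAACCA core on the plus strand, from base 8 to base 13, and the bases after it differ from the HRPE at 2 positions. Windows from 250 bases before to 50 bases after the RefSeq start were searched on both strands in 26709 genes. The HRPE was found in 18 windows (0.0674%), *PCO1* being the only one of the 10 members. AAACCA, which the HRPE contains, was in 8541 of 26709 windows and in those of *PCO1*, *PCO2*, *PCO4* and *VRN2*. The GCC box core GCCGCC (2.55% of windows) and the G box CACGTG (7.79%) were in none of the 10. A match is a description of the sequence only.

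**Figure D2:**
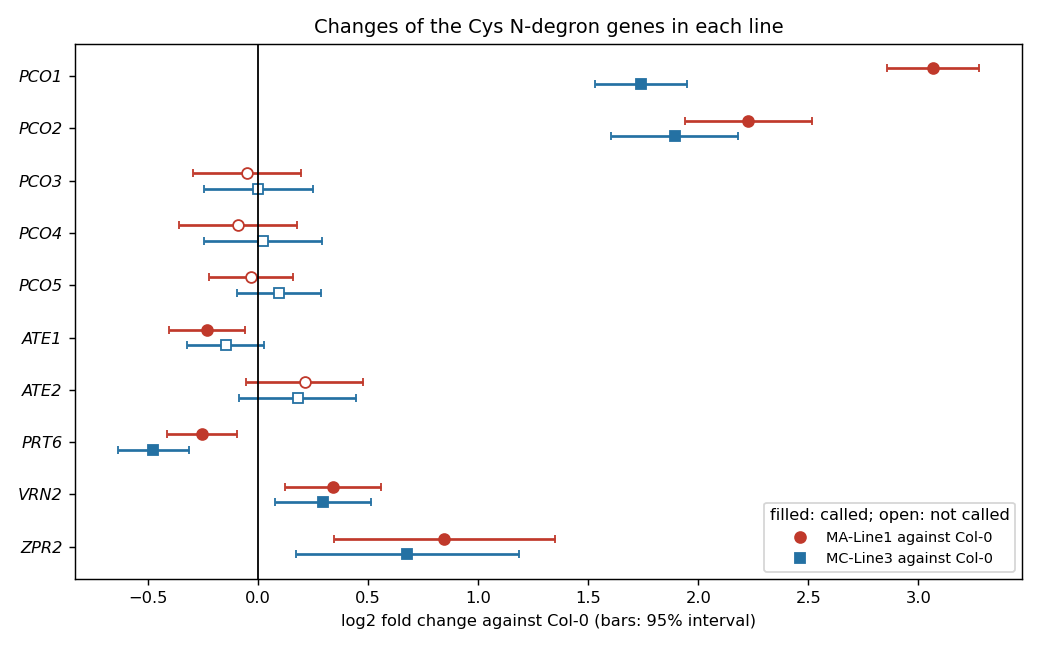
Log2 fold change against Col-0 (x axis) of the 10 genes in MA-Line1 (red circles) and MC-Line3 (blue squares), with unadjusted 95% intervals and filled symbols for an adjusted p below 0.05. *PCO1* and *PCO2* lie at 1.74 or above in both lines, and *PCO3*, *PCO4* and *PCO5* lie within 0.10 of 0.

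The other 3 oxidase genes showed no call in any comparison. *PCO3*, known as a constitutive member of the family like *PCO4* and *PCO5*, had 12.2 and 10.5 CPM in MA-Line1, 11.7 and 11.9 CPM in MC-Line3, and 12.1 and 11.4 CPM in Col-0. *PCO4* had 13.8 and 11.6 CPM in MA-Line1, 12.8 and 14.6 CPM in MC-Line3, and 12.7 and 14.3 CPM in Col-0. *PCO5* had 19.9 and 19.9 CPM in MA-Line1, 20.9 and 22.7 CPM in MC-Line3, and 19.8 and 21.0 CPM in Col-0. The libraries of the lines and of Col-0 overlapped for all 3 genes. In MA-Line1 their log2 fold changes were -0.05, -0.09 and -0.03, with unadjusted 95% intervals inside -0.36 to 0.20. In MC-Line3 they were -0.00, 0.02 and 0.10, with intervals inside -0.25 to 0.29. With library size alone the 3 values in MA-Line1 turned positive, at 0.12, 0.079 and 0.13, and were not called either. A 2-fold change of any of the 3 lies outside these intervals. *PCO3* shares 234 of its exonic bases (13.9%) with the neighbour *AT1G18486* on the same strand, and how reads in that stretch were counted is not given in the sources used here.

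The called and the uncalled oxidase genes were compared by sequence. Over the coding sequences, *PCO4* and *PCO5* were identical in 78.1% of aligned columns and *PCO1* and *PCO2* in 63.2%. All other pairs lay between 49.7% and 54.1%. No 50-base stretch of any member's exons was found elsewhere in the genome, so reads of one oxidase gene are not expected to match another over that length.

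The makeup of the oxidase transcripts was compared per length, as CPM per kilobase of merged exons. Summed over *PCO1* to *PCO5*, the level was 69.9 ± 1.88 CPM per kilobase in MA-Line1, 50.1 ± 1.50 in MC-Line3 and 33.3 ± 1.56 in Col-0 (SD, n = 2 each). *PCO3*, *PCO4* and *PCO5* together contributed 26.0 ± 1.45 CPM per kilobase in MA-Line1, 27.9 ± 1.58 in MC-Line3 and 26.9 ± 0.834 in Col-0 (SD, n = 2 each). The sum of these 3 thus differed between genotypes by about the spread of replicates, and the larger totals of the lines came from *PCO1* and *PCO2*. That pair made up 62.1% and 63.6% of the summed level in MA-Line1, 45.4% and 43.3% of it in MC-Line3, and 18.1% and 20.0% in Col-0. No separate test was run on these sums, which contain the genes called above.

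**Figure D3:**
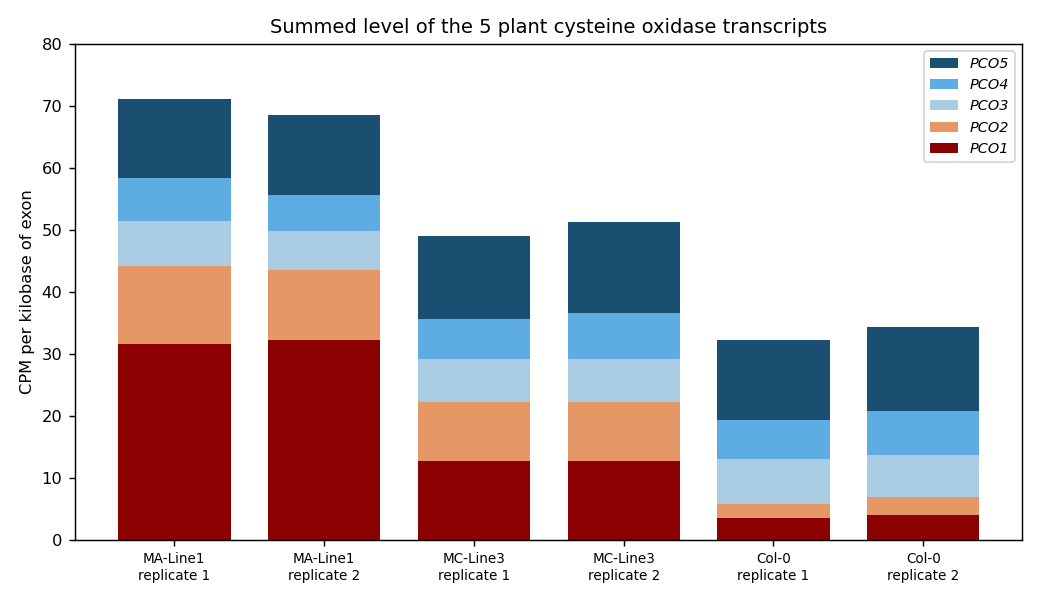
Stacked level of the 5 plant cysteine oxidase transcripts in each library (y axis, CPM per kilobase of exon, from 0; x axis, libraries by genotype). *PCO1* and *PCO2* at the base of the bars make up 62.1% and 63.6% in MA-Line1, 45.4% and 43.3% of the bars in MC-Line3, and 18.1% and 20.0% in Col-0.

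The order of the 10 genes by level per length therefore differed between genotypes. In MA-Line1, *PCO1* was highest at 31.9 ± 0.502 CPM per kilobase (SD, n = 2), the 83.8 percentile of 21058 tested genes with a known length. It was followed by *PCO5*, *ATE1*, *PCO2* and *VRN2* between 12.9 and 11.4, then *PRT6* at 7.86, *PCO3* at 6.75, *PCO4* at 6.33, *ATE2* at 4.66 and *ZPR2* at 2.71. In MC-Line3, *PCO5* was highest at 14.1 ± 0.840 CPM per kilobase (SD, n = 2), followed by *ATE1* at 12.8, *PCO1* at 12.7, *VRN2* at 11.01 and *PCO2* at 9.52. *PCO3*, *PCO4* and *PRT6* lay between 7.00 and 6.74, *ATE2* at 4.56 and *ZPR2* at 2.41. In Col-0, *ATE1* led with 14.2 ± 0.580 CPM per kilobase (SD, n = 2), followed by *PCO5* at 13.2, *PRT6* at 9.38, *VRN2* at 8.99, *PCO3* at 7.00, *PCO4* at 6.73, *ATE2* at 4.02, *PCO1* at 3.80, *PCO2* at 2.55 and *ZPR2* at 1.51. *PCO1* was at the 33.8 percentile there. Neighbours whose means ± SD overlapped were *ATE1* with *PCO2*, *PCO2* with *VRN2*, and *PCO3* with *PCO4* in MA-Line1. They were *PCO5* with *ATE1*, *ATE1* with *PCO1*, and *PCO3*, *PCO4* and *PRT6* with each other in MC-Line3. In Col-0 they were *ATE1* with *PCO5*, *PRT6* with *VRN2*, *PCO3* with *PCO4*, and *ATE2* with *PCO1*.

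Downstream of the oxidases, the ligase gene *PRT6* was lower in both lines. *PRT6* (chromosome 5, 473868 to 482942, plus strand) had 54.0 and 52.5 CPM in MA-Line1, 46.6 and 44.6 CPM in MC-Line3, and 65.5 and 61.5 CPM in Col-0. No library of either line reached the Col-0 libraries, and MC-Line3 was the lowest. In MC-Line3 it fell by 0.48 on the log2 scale (SE 0.073, adjusted p = 0.000723), a call that held under every alternative tried, and by 0.25 in MA-Line1 (SE 0.072, adjusted p = 0.0183). The call in MA-Line1 disappeared when MA-Line1 replicate 1 or 2 was left out (adjusted p = 0.101 and 0.152) and with scaling by library size alone (adjusted p = 0.359, log2 fold change -0.08). Between the lines, MA-Line1 stood 0.22 above MC-Line3 (adjusted p = 0.0535). *PRT6* shares 150 exonic bases (2.22%) with *AT5G02320* on the opposite strand, which the library kit does not resolve.

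The arginyl transferase genes *ATE1* and *ATE2*, identical in 72.1% of aligned coding columns, gave small changes. *ATE1* had 28.0 and 29.1 CPM in MA-Line1, 29.3 and 31.2 CPM in MC-Line3, and 34.5 and 32.6 CPM in Col-0. It fell by 0.23 in MA-Line1 (SE 0.078, adjusted p = 0.0382) and had a log2 fold change of -0.15 in MC-Line3 (adjusted p = 0.177). The *ATE1* call in MA-Line1 was lost in 7 of 18 alternatives, whose adjusted p ranged from 0.0215 to 0.529, among them those without MA-Line1 replicate 1 (0.244), MA-Line1 replicate 2 (0.137), MC-Line3 replicate 1 (0.0537) or Col-0 replicate 1 (0.108). With library size alone its log2 fold change was -0.06. *ATE2* had 10.6 and 11.5 CPM in MA-Line1, 10.6 and 11.03 CPM in MC-Line3, and 8.75 and 10.3 CPM in Col-0. Its log2 fold changes of 0.21 in MA-Line1 (adjusted p = 0.191) and 0.18 in MC-Line3 (adjusted p = 0.285) missed the threshold, although all libraries of the lines lay above those of Col-0.

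Both substrate genes were higher in both lines. *VRN2* encodes a subunit of Polycomb repressive complex 2 (PRC2), which holds the floral repressor gene *FLC* silent after winter cold. *VRN2* (chromosome 4, 9476069 to 9479878, plus strand) had 22.8 and 22.1 CPM in MA-Line1, 20.1 and 23.4 CPM in MC-Line3, and 18.6 and 16.9 CPM in Col-0. The lines lay above Col-0 and overlapped each other. It rose by 0.34 in MA-Line1 (SE 0.098, adjusted p = 0.0198) and by 0.29 in MC-Line3 (SE 0.099, adjusted p = 0.0440). Without MA-Line1 replicate 1 or 2 the MA-Line1 call was lost (adjusted p = 0.129 and 0.0826). The MC-Line3 call was lost in 8 of 18 alternatives, among them those without MC-Line3 replicate 2 (adjusted p = 0.308), MA-Line1 replicate 1 or 2 (0.0836 and 0.0841) or Col-0 replicate 2 (0.130).

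*ZPR2* encodes a little zipper protein that binds class III HD-ZIP transcription factors in the shoot meristem and blocks them. *ZPR2* (chromosome 3, 22496875 to 22498099, minus strand) was the least counted member, with 179 and 163 reads in MA-Line1, 122 and 148 reads in MC-Line3, and 92 and 83 reads in Col-0. These are 2.65 and 2.83 CPM in MA-Line1, 2.26 and 2.62 CPM in MC-Line3, and 1.71 and 1.34 CPM in Col-0. All libraries of the lines lay above both of Col-0. It rose by 0.85 in MA-Line1 (SE 0.227, adjusted p = 0.0137) and by 0.68 in MC-Line3 (SE 0.229, adjusted p = 0.0448). Its biological coefficient of variation of 13.7% was the highest among the members, whose others lay between 5.78% and 8.73%. The MA-Line1 call was lost in 3 of 18 alternatives, those without MA-Line1 replicate 1 or 2 (adjusted p = 0.0590 and 0.0848) or Col-0 replicate 2 (0.0514). The MC-Line3 call was lost in 9, among them those without MA-Line1 replicate 1 or 2 (0.0776 and 0.0789), MC-Line3 replicate 1 or 2 (0.0813 and 0.208) or Col-0 replicate 2 (0.171).

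Compared directly, the lines differed in 1 of the 10 genes, *PCO1*, where 20.0% of all tested genes were called between MA-Line1 and MC-Line3, 11.3% as higher and 8.68% as lower. *PCO1* was 2.51-fold higher in MA-Line1, and 5.52% of all tested genes were called with more than 2-fold change, 3.31% higher and 2.21% lower. *PRT6* and *PCO2* came next, with the adjusted p-values of 0.0535 and 0.0744 given above. The remaining 7 had log2 differences between -0.13 and 0.17. With the likelihood ratio test, with only these lines fitted, or without Col-0 replicate 1 or 2, *PCO2* and *PRT6* were called as well, a count of 3. Groups of libraries failed to overlap for 7, 7 and 6 of the 10 genes in MA-Line1 against Col-0, MC-Line3 against Col-0, and MA-Line1 against MC-Line3, against 70.4%, 64.6% and 62.1% of all tested genes.

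Genes that act before, beside or after the 10 members were examined in 6 lists, whose counts stand beside 37.1% of all tested genes called in MA-Line1 (18.0% higher, 19.1% lower) and 31.2% in MC-Line3 (14.5% higher, 16.7% lower). The median log2 fold change over all genes was 0.01 in either line. The methionine aminopeptidases open the pathway by removing the initial methionine. Of 6 genes, 2 rose and 0 fell in MA-Line1, while 4 rose and 0 fell in MC-Line3, with list medians of 0.15 for MA-Line1 and 0.21 for MC-Line3. Of the calls in MC-Line3, those of *MAP2A* and *MAP2B* were each lost in 13 of 18 alternatives (adjusted p up to 0.228 and 0.183) and that of *MAP1A* in 8 (up to 0.370). Each of these 3 was lost without MC-Line3 replicate 2 or either MA-Line1 library, and *MAP2A* and *MAP2B* also without MC-Line3 replicate 1. *MAP1A* and *MAP2B* were lost without Col-0 replicate 2, and *MAP2A* without Col-0 replicate 1. The largest change in MA-Line1 was that of *MAP1A* (*AT2G45240*), at 0.41 (SE 0.105, adjusted p = 0.0108), and in MC-Line3 that of *AT1G13270*, *MAP1B*, which encodes an organellar enzyme, at 0.56 (SE 0.164, adjusted p = 0.0240). *AT1G13270* had 33.7 and 32.9 CPM in MC-Line3, against 27.8 and 17.4 CPM in Col-0, whose libraries lay apart. The call of *AT1G13270* was lost without MC-Line3 replicate 1 or 2 (adjusted p up to 0.123), and that of *MAP1A* in MA-Line1 without MA-Line1 replicate 1 (adjusted p = 0.106).

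Of 4 other N-degron components, the genes in MA-Line1 lay between -0.14 and 0.28 and missed the threshold, the largest estimate being that of the asparagine amidase gene *NTAN1* (adjusted p = 0.0834). In MC-Line3, 2 rose. The list medians were 0.23 for MA-Line1 and 0.29 for MC-Line3. *PRT1*, the gene of the ligase for aromatic N-termini, rose by 0.38 (SE 0.098, adjusted p = 0.0128), a call lost without MC-Line3 replicate 2 (adjusted p = 0.115). *NTAQ1*, the glutamine amidase gene, rose by 0.35 (SE 0.106, adjusted p = 0.0285), a call lost in 7 of 18 alternatives, among them those without Col-0 replicate 1 or any 1 library of the lines (adjusted p up to 0.134). *NTAQ1* shares 54.11% of its exonic bases with *AT2G41750* on the opposite strand, and reads in that stretch cannot be told apart from those of that gene. *BIG*, which acts beside *PRT6* as a second ligase for the same N-termini, gave log2 values of -0.14 for MA-Line1 (adjusted p = 0.181) and -0.20 for MC-Line3 (adjusted p = 0.0718) against Col-0.

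The endogenous ERFVIIs, the main substrates of the pathway, moved in different directions. The text of the study instead reports them as not differentially expressed in either line, and their CPM as mostly similar to Col-0. It used edgeR at a false discovery rate below 0.05 and called far fewer genes in all than were called here. The reason for this difference was not tested. *HRE2*, a member known to be induced by low oxygen, had 4.40 and 4.90 CPM in MA-Line1, 1.61 and 1.15 CPM in MC-Line3, and 0.875 and 0.614 CPM in Col-0. It rose by 2.65 in MA-Line1 (SE 0.266, adjusted p = 3.49e-05) and by 0.89 in MC-Line3 (SE 0.282, adjusted p = 0.0336), and MA-Line1 exceeded MC-Line3 by 1.75 (SE 0.249, adjusted p = 0.000573). *RAP2.3* had 943 and 971 CPM in MA-Line1, 815 and 789 CPM in MC-Line3, and 1246 and 1736 CPM in Col-0, and fell by 0.64 in MA-Line1 (SE 0.123, adjusted p = 0.00227) and by 0.89 in MC-Line3 (SE 0.124, adjusted p = 0.000395). The Col-0 libraries of *RAP2.3* differed from each other by more than those of either line did. *HRE1* rose by 0.55 in MC-Line3 (SE 0.124, adjusted p = 0.00684) and had 0.03 in MA-Line1 (adjusted p = 0.877), and its log2 difference between MA-Line1 and MC-Line3 was -0.52 (adjusted p = 0.0125). *HRE1* shares 124 exonic bases (9.74%) with *AT1G72370* on the opposite strand, which the library kit does not resolve. *RAP2.2* rose by 0.24 in MA-Line1 (adjusted p = 0.0192) and had 0.02 in MC-Line3 (adjusted p = 0.831). *RAP2.12* had -0.15 in MA-Line1 (adjusted p = 0.116) and fell by 0.25 in MC-Line3 (adjusted p = 0.0173). Of the membrane tethers of *RAP2.12* and *RAP2.3*, *ACBP2* fell by 0.42 in MC-Line3 (adjusted p = 0.0154) and *ACBP1* was not called. The *HRE2* rise in MC-Line3 was lost without Col-0 replicate 2, MC-Line3 replicate 1 or either MA-Line1 library (adjusted p up to 0.204). The call of *RAP2.2* in MA-Line1 was lost without either MA-Line1 library (adjusted p up to 0.166), that of *RAP2.12* without any 1 library of the lines (up to 0.157), that of *HRE1* in MC-Line3 without MC-Line3 replicate 1 (0.0517) and that of *ACBP2* without either MC-Line3 library (up to 0.0892). The difference in *HRE1* between the lines was lost without any 1 of their libraries (up to 0.103). The changes of *HRE2* in MA-Line1 and of *RAP2.3* in both lines held in all 18 alternatives. In all, 2 of these 7 genes rose and 1 fell in MA-Line1, a share near the 37.1% of all genes called there, and 2 rose and 3 fell in MC-Line3, against 31.2% of all genes. The list medians were -0.08 for MA-Line1 and -0.03 for MC-Line3.

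**Figure D4:**
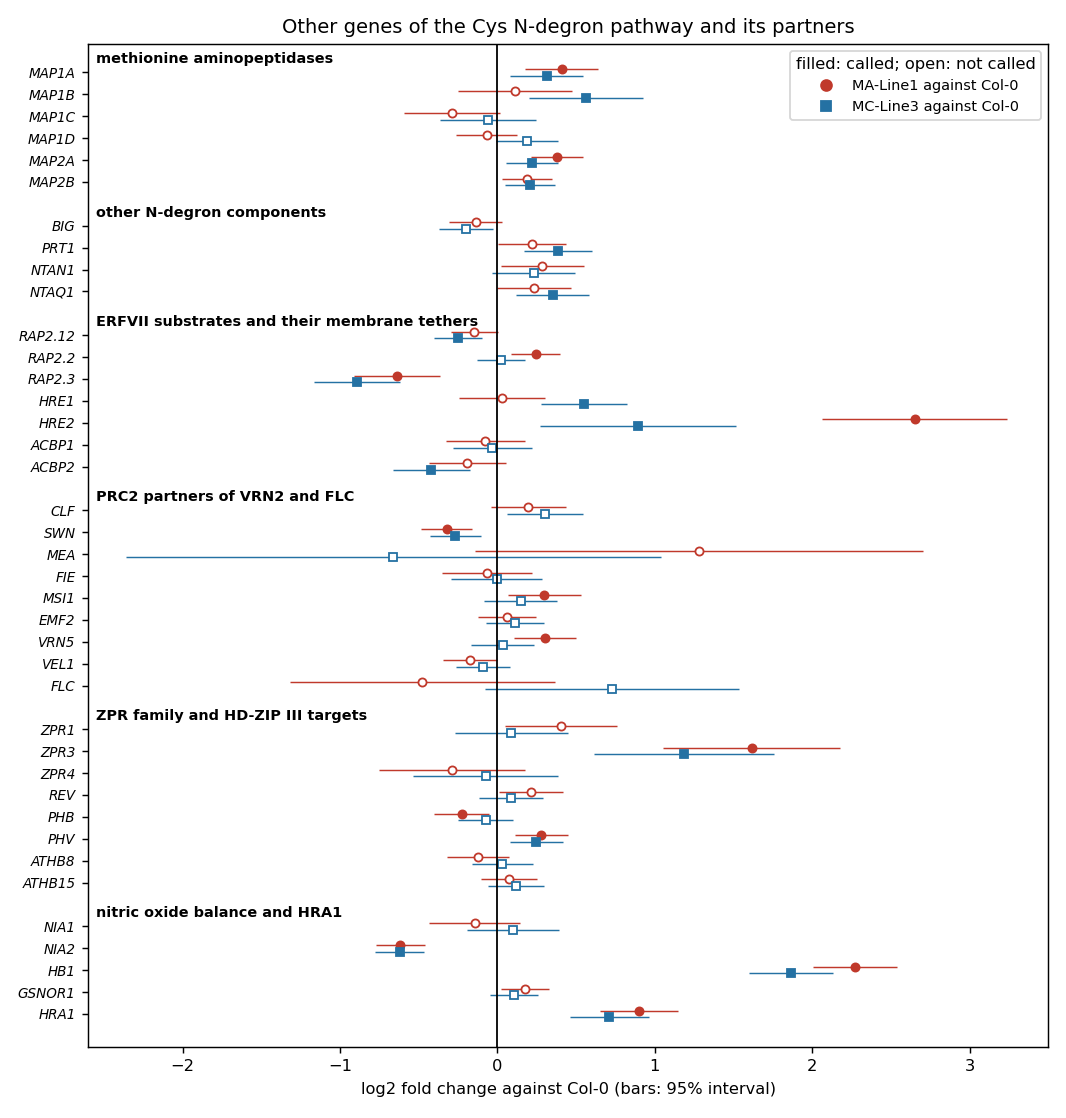
Log2 fold change against Col-0 (x axis, unadjusted 95% intervals) of the tested genes of 6 lists (rows) in MA-Line1 (red circles) and MC-Line3 (blue squares), with filled symbols for an adjusted p below 0.05. *HRE2* at 2.65 and *HB1* at 2.27 in MA-Line1 stand furthest right, and most other genes lie within 1 of 0.

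Around *VRN2*, 9 of 11 genes of PRC2, its cold-induced partners and *FLC* were tested. *VIN3*, which cold induces, and the seed gene *FIS2* did not pass the filter. In MA-Line1, *MSI1* and *VRN5* rose by 0.30 each (adjusted p = 0.0444 and 0.0214) and the methyltransferase gene *SWN* fell by 0.32 (adjusted p = 0.00598). *MSI1* shares 132 exonic bases (8.12%) with *AT5G58240* on the opposite strand, which the library kit does not resolve. In MC-Line3, *SWN* alone was called and fell by 0.27 (adjusted p = 0.0185). The 3 of 9 called in MA-Line1 and the 1 of 9 in MC-Line3 are no larger shares than the 37.1% and 31.2% of all genes, and the list medians were 0.06 for MA-Line1 and 0.03 for MC-Line3. The *SWN* calls were lost without MA-Line1 replicate 2 in MA-Line1 (adjusted p up to 0.133 over the alternatives) and without either MC-Line3 library in MC-Line3 (up to 0.183). Those of *MSI1* and *VRN5* were lost without Col-0 replicate 2 or either MA-Line1 library (up to 0.253 and 0.176), and that of *MSI1* also without either MC-Line3 library. *FLC* had 0.902 and 1.25 CPM in MA-Line1, 2.28 and 2.67 CPM in MC-Line3, and 2.121 and 0.889 CPM in Col-0. The Col-0 libraries of *FLC* spanned the level of MA-Line1, and neither line was called against Col-0 (log2 fold changes -0.48 and 0.73, adjusted p = 0.356 and 0.156), while the log2 difference between MA-Line1 and MC-Line3 was -1.20 (SE 0.372, adjusted p = 0.0431), a call lost without any 1 of the libraries of the 2 lines (adjusted p up to 0.258). An antisense transcript covers 68.14% of the exonic bases of *FLC* and was not counted separately. *MEA* had the largest estimate of the list in MA-Line1, 1.28 (adjusted p = 0.144), with 55 and 13 reads in MA-Line1, 9 and 6 reads in MC-Line3, and 11 and 14 reads in Col-0.

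Around *ZPR2*, its relative *ZPR3*, which encodes another little zipper protein, rose in both lines. *ZPR3* had 2.78 and 2.61 CPM in MA-Line1, 1.74 and 2.26 CPM in MC-Line3, and 0.800 and 0.953 CPM in Col-0. Its log2 fold change was 1.61 (SE 0.254, adjusted p = 0.000640) in MA-Line1 and 1.19 (SE 0.259, adjusted p = 0.00579) in MC-Line3, and the MC-Line3 call was lost without MC-Line3 replicate 2 (adjusted p = 0.0605). *ZPR1* and *ZPR4* were not called. Among the HD-ZIP III genes, whose proteins the little zippers bind, *PHV* rose by 0.28 in MA-Line1 (adjusted p = 0.0159) and by 0.25 in MC-Line3 (adjusted p = 0.0323), and *PHB* fell by 0.23 in MA-Line1 (adjusted p = 0.0436). Of the 8 genes of this list, 2 rose and 1 fell in MA-Line1, and 2 rose in MC-Line3. These counts are about or below the 37.1% and 31.2% of all genes called, and the list medians were 0.14 for MA-Line1 and 0.09 for MC-Line3. The *PHV* call in MA-Line1 was lost without either MA-Line1 library (adjusted p up to 0.147) and that in MC-Line3 without Col-0 replicate 1 or any 1 library of the lines (up to 0.165). The *PHB* call was lost without Col-0 replicate 2 or any 1 library of the lines, and reached 0.595 over the alternatives.

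Nitric oxide is needed together with oxygen for degradation of Cys N-degron substrates, and HRA1 is a known repressor of *RAP2.12* activity. Of 5 genes in this list, 2 rose and 1 fell in each line, against 37.1% of all genes called in MA-Line1 and 31.2% of them in MC-Line3. The list medians were 0.18 for MA-Line1 and 0.11 for MC-Line3. *HB1*, a haemoglobin that removes nitric oxide, had 53.2 and 55.6 CPM in MA-Line1, 45.2 and 36.7 CPM in MC-Line3, and 10.1 and 12.4 CPM in Col-0, and rose by 2.27 in MA-Line1 (SE 0.121, adjusted p = 5.85e-07) and by 1.86 in MC-Line3 (SE 0.121, adjusted p = 1.92e-06). *HRA1* rose by 0.90 (SE 0.112, adjusted p = 0.000140) in MA-Line1 and by 0.71 (SE 0.112, adjusted p = 0.000909) in MC-Line3, whereas the text of the study reports no upregulation of it. *NIA2*, the main nitrate reductase gene, fell by 0.62 in MA-Line1 (SE 0.071, adjusted p = 7.96e-05) and by 0.62 in MC-Line3 (SE 0.071, adjusted p = 0.000104). These calls held in all 18 alternatives. MA-Line1 also exceeded MC-Line3 in *HB1*, by 0.41 (SE 0.112, adjusted p = 0.0252), a call lost without MC-Line3 replicate 2 or either MA-Line1 library (adjusted p up to 0.224).

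The profile of *HB1* was the one most like that of *PCO2* among all tested genes. Likeness was measured as the root mean square difference of log2 CPM profiles (prior count of 2, each gene centred on its mean) over the 6 libraries, and was 0.11 for *HB1*, 0.16 for *AT3G06435*, 0.21 for *AT4G00670*, 0.21 for *NAC044* and 0.22 for *AT5G03890*. For *PCO1* the closest were *AT3G12410* (0.13), *CYP71A12* (0.21), *AT1G59950* (0.24), *RL1* (0.26) and *NUDT24* (0.26). *PCO1* and *PCO2* differed from each other by 0.44, which made *PCO2* the 25th closest gene to *PCO1* and *PCO1* the 64th closest to *PCO2* among 21205. With a prior count of 0.5, all 5 of the *PCO2* genes and 3 of the 5 *PCO1* genes were the same. The 6 libraries are 3 genotypes, so these profiles rest on few independent contrasts.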

How the data were processed

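Whole-seedling RNA of 3 genotypes was sequenced in 2 libraries each. Per the study's methods and the labels, libraries were made with a TruSeq RNA v2 kit, which does not mark strand, and the authors trimmed the reads, aligned them with TopHat2 (TAIR10), counted them with HTSeq and used edgeR. The counting mode and annotation release are not given in the sources used here. The table deposited by the authors holds raw counts, as whole numbers for 28775 genes, with no normalization.

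Counts were analysed in R 4.3.3 with edgeR 4.0.16 (TMM, its default expression filter, 1 mean per genotype, all 6 libraries, quasi-likelihood test, Benjamini-Hochberg adjustment over 21206 genes). Standard errors were obtained from each log2 fold change and its F statistic. SDs are over 2 libraries. The p-values test differences between genotype means against a spread estimated from these 6 libraries. The procedure was tested on simulated data for MA-Line1 against Col-0. There 100 of 100 genes changed 2-fold were called, with 11 unchanged genes called among 21021 tested. The simulation gave all genes 1 common dispersion and changed only genes with an expected count above 100. Its rates therefore check the procedure and do not carry over to these data. Gene models, lengths and sequences came from RefSeq on TAIR10.1, used by gene identifier. Members and lists were chosen with earlier results of these data known. All members were named; list genes were named when called with more than 2-fold change, when their change was the largest of the list in a line, when an ERFVII, or, beyond this rule and after their values were seen, as examples of calls. Alternatives were other size factors, filters and tests, limma 3.58.1 (voom), DESeq2 1.42.0, fewer libraries, a replicate block, transcript length and prior count.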

Additional observations from a re-analysis of the deposited data

Results flagged for a closer look

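Among the members and the genes of the 6 lists, the effects of the lines against Col-0 differed for 6 by edgeR's quasi-likelihood test of MA-Line1 against MC-Line3. These were 1 of 10 members, 3 of 7 ERFVII and tether genes, 1 of 9 tested genes around *VRN2* and 1 of 5 genes of the nitric oxide list. The other lists gave 0. Of the marker genes, 4 of 5 root genes and 4 of 5 shoot genes were also lower in MA-Line1 than in MC-Line3. For *PCO1* the difference was 1.33 on the log2 scale (adjusted p = 2.99e-06), with both MA-Line1 libraries above both MC-Line3 libraries. It was 1.75 for *HRE2* (adjusted p = 0.000573), 0.41 for *HB1* (adjusted p = 0.0252) and 0.22 for *RAP2.2* (adjusted p = 0.0486). It was -0.52 for *HRE1* (adjusted p = 0.0125) and -1.20 for *FLC* (adjusted p = 0.0431), where MA-Line1 was the lower. At the same threshold, 20.0% of all tested genes differed between the lines. Of these 6 calls, those of *PCO1* and *HRE2* held in all 18 alternatives, and the other 4 were lost when single libraries of the lines were left out. With 2 libraries a group, which of a pair stands apart cannot be said. The pair differed by 5.70 (chi-square per gene) in MA-Line1, 9.97 in MC-Line3 and 27.7 in Col-0.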

How the results depend on the processing

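Of 540 values of the members' log2 fold changes under 18 settings, 472 kept their direction and side of the threshold, 32 lost a call, 14 gained one and 22 changed sign. The calls of *PCO1* and *PCO2* against Col-0, of *PCO1* between the lines and of *PRT6* in MC-Line3 held in all 18. The sign changes concern values that were not called. With library size alone, *PCO3*, *PCO4* and *PCO5* in MA-Line1 moved to 0.12, 0.079 and 0.13, and *PCO3* in MC-Line3 to 0.13. That scaling shifted the median over all genes to 0.18 (MA-Line1) and 0.14 (MC-Line3), and the share of higher calls to 73.5% and 69.5%, against 48.4% and 46.5%. For *PCO3* in MC-Line3, at -0.00011, no filter gave 0.0012, voom 0.0026, the replicate block 0.0011 and the quasi-likelihood fit without its legacy option, added after seeing the data, 0.00072. That planned legacy option is the default of this edgeR version, so it is the same fit. In every count over 18 settings given here it could only repeat the main result. Without single libraries, *PCO3*, *PCO4* and *PCO5* lay between -0.16 and 0.050, -0.22 and 0.030, and -0.071 and 0.019 in MA-Line1, *PCO3* and *PCO4* between -0.049 and 0.035 and between -0.075 and 0.11 in MC-Line3, and *PCO3*, *PCO4*, *ATE2* and *VRN2* between -0.16 and 0.050, -0.24 and 0.0074, -0.023 and 0.084, and -0.047 and 0.16 between the lines.

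The number of members called in MC-Line3 was 3 with DESeq2, with only the groups compared and with the replicate block, and 3 to 5 without single libraries. In MA-Line1 it was 2 to 6 without single libraries. Between the lines it was 2 with library size alone, at least 10 counts in every library, the exact test and voom, 3 with the likelihood ratio test and with only the groups compared, and 1 to 3 without single libraries. The genes called without single libraries numbered 4379 to 8413 in MA-Line1, 3536 to 7476 in MC-Line3 and 2124 to 6074 between the lines, where a lone library was assumed to vary like the other groups. The causes were not tested. With the replicate block, *ATE1* in MA-Line1 (adjusted p = 0.0555) and *VRN2* and *ZPR2* in MC-Line3 (adjusted p = 0.0591 and 0.0622) were not called. Over all tested genes, same-numbered libraries did not deviate together (correlations of -0.053, 0.032 and -0.013). A batch that touched only some genes would not show in these correlations, and whether the number pairs libraries was not tested further. With the longest transcript as length, *PCO5* and *ZPR2* in Col-0 moved to 13.8 and 1.80 CPM per kilobase. With a prior count of 0.5, 3 of 5 genes most like *PCO1* stayed.

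Of 36 calls of list genes, 12 held in all 18 settings and 24 were lost in at least 1. Of their 648 values, 531 kept the call, 117 lost it and 0 changed sign.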

Other observations

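The 18 genes with an HRPE in the window around their start were looked up after the values of *PCO1* were seen. They hold 16 distinct sites, 6 of the genes share a site with a neighbouring gene, and 16 of them were tested. In MA-Line1, 6 of 16 rose and 1 fell (37.5% higher, against 18.0% of all tested genes), with a median log2 fold change of 0.14. In MC-Line3, 6 of 16 rose and 1 fell (37.5%, against 14.5%), with a median of 0.21. *PCO1*, which prompted the search, was among the genes that rose in both lines and was the only one that differed between the lines. The neighbours *AT3G27220* and *AT3G27230* also rose in both lines and share their sites, so these shares do not count independent sites.

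The second largest change was that of *AT3G27220*, at 1.26 (SE 0.102, adjusted p = 9.07e-06) in MA-Line1 and 1.08 (SE 0.102, adjusted p = 3.14e-05) in MC-Line3. *HLL* rose by 0.59 (adjusted p = 0.00677) in MA-Line1 and by 0.54 (adjusted p = 0.0128) in MC-Line3. *PFK6*, a phosphofructokinase gene of glycolysis, rose by 0.44 (adjusted p = 0.0226) in MA-Line1 and by 0.42 (adjusted p = 0.0348) in MC-Line3. *ZFN2* was called higher in MA-Line1 only and *AT5G10910* in MC-Line3 only. *AT1G13650* fell by 0.78 (adjusted p = 0.000290) in MA-Line1 and by 0.70 (adjusted p = 0.000802) in MC-Line3. In each line 9 of the 16 were not called. Both lines are set against the same Col-0 libraries.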
